A study of Mus musculus with 24 samples.

Results

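The comparison set microglia of mice that had the BCAS operation and then received WD-Exos against microglia of sham-operated mice, gene by gene, with 6 libraries in each group. Its members were the 12 libraries that the sample labels place in these groups, of 24 in the series, and the 15878 genes with values, of which 10219 passed the filter on low counts and were tested. The WD-Exos group held wild-type mice with the BCAS operation injected with WD-Exos into a tail vein, 100 µg at intervals of 3 days, until day 28. The Sham group held wild-type mice with the sham operation, whose library names carry PBS, the usual buffered saline. The groups therefore differ both by the operation and by the exosomes, which cannot be told apart in this comparison. Values of BCAS mice with PBS and of BCAS mice with ND-Exos, 6 libraries each and also from day 28, are given alongside where they bear on it. Age and sex are not stated in the labels used here, and the labels do not spell out ND and WD. Nor do they say whether each sample is a mouse of its own, so p-values here reflect spread among the samples of a group, and part of that may be technical.

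BCAS usually stands for bilateral carotid artery stenosis, in which coils narrow both neck arteries and the forebrain is left short of blood for weeks, with damage mainly to white matter. Exosomes are small vesicles that cells release and other cells take up, and the series title traces these to foam cells, the lipid-filled macrophages of atherosclerotic plaques. Microglia are the macrophages of brain tissue. At rest they survey their surroundings through purinergic and chemokine receptors, and after injury they can switch on interferon, cytokine, phagocytic and lipid-handling programmes and shift between respiration and glycolysis.

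The 12 libraries were of similar depth. The total was 26426719 to 27520150 counts in WD-Exos libraries and 25123405 to 28601008 in Sham libraries. The number of genes with a count averaged 9773 ± 581 in WD-Exos and 9775 ± 455 in Sham (SD, n = 6 each; exact two-sided permutation p = 0.994, adjusted p = 0.994 over both library measures). Microglial genes were abundant in every library. The mean log2(CPM + 1) of 22 homeostatic microglial genes was 10.5 to 10.9 in WD-Exos libraries and 10.3 to 10.6 in Sham libraries, where CPM is the count scaled to a common library total with the TMM library factors. Transcripts on marker lists of other cell types were present at uneven levels. Oligodendrocyte markers summed to between 3534 and 11245 CPM in WD-Exos libraries and between 3653 and 14617 CPM in Sham libraries. Endothelial markers summed to between 650.2 and 905 CPM in WD-Exos libraries and between 597 and 1809 CPM in Sham libraries, and astrocyte markers to between 537 and 1006 CPM in WD-Exos and between 502 and 795 CPM in Sham. Of the 12 endothelial markers 11 had a lower mean in WD-Exos and 1 a higher one, and the 5 tested had a median log2 fold change of -1.04. B cell markers summed to between 14.9 and 58.1 CPM in WD-Exos and between 24.5 and 48.7 CPM in Sham, with 4 of the 6 WD-Exos libraries above every Sham library. The most abundant members of these lists were Trf (oligodendrocyte), Bsg (endothelial), Glul (astrocyte) and Cd79b (B cell). The part of transcripts made by microglia in these sums was not tested. The neutrophil genes S100a9, Ltf and Camp, the monocyte gene Chil3 and the B cell gene Pax5 had no count in any of the 12 libraries. The spread between libraries was wide, and 52% of tested genes lacked a count in at least 1 of the 24 libraries. The standard error (SE) of a log2 fold change had a median of 1.09 over all tested genes, against 0.23 for the 1276 abundant genes, those whose mean was above 100 CPM in both groups.

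No gene passed the test across all genes. Of 10219 genes, 0 (0%) had an adjusted p under 0.05 by edgeR's quasi-likelihood test, and the smallest adjusted p was 0.0624. An unadjusted p under 0.05 was found for 551 genes (5.39%), of which 255 were higher in WD-Exos (2.5% of those tested) and 296 lower (2.9%). The other tools made more calls on the same counts, with 63 genes past the threshold by voom with library weights and 172 by DESeq2. Among the 1276 abundant genes, where the spread was smaller, 219 (17.2%) had an unadjusted p under 0.05. There the split was uneven, with 61 genes higher (4.78%) and 158 lower (12.4%) in WD-Exos. All 6 WD-Exos libraries stood below all 6 Sham libraries for 47 of the abundant genes (3.68%) and above them for 3 (0.235%). Over all tested genes these numbers were 76 (0.744%) and 30 (0.294%). By sign alone, 50.5% of all tested genes were higher and 49.5% lower in WD-Exos, and 45.1% of the abundant genes were higher and 54.9% lower. Every gene and list below is therefore described by its level, its direction and its place against these background shares, and none is past the adjusted threshold in this comparison by edgeR unless a sentence says so.

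**Figure D1:**
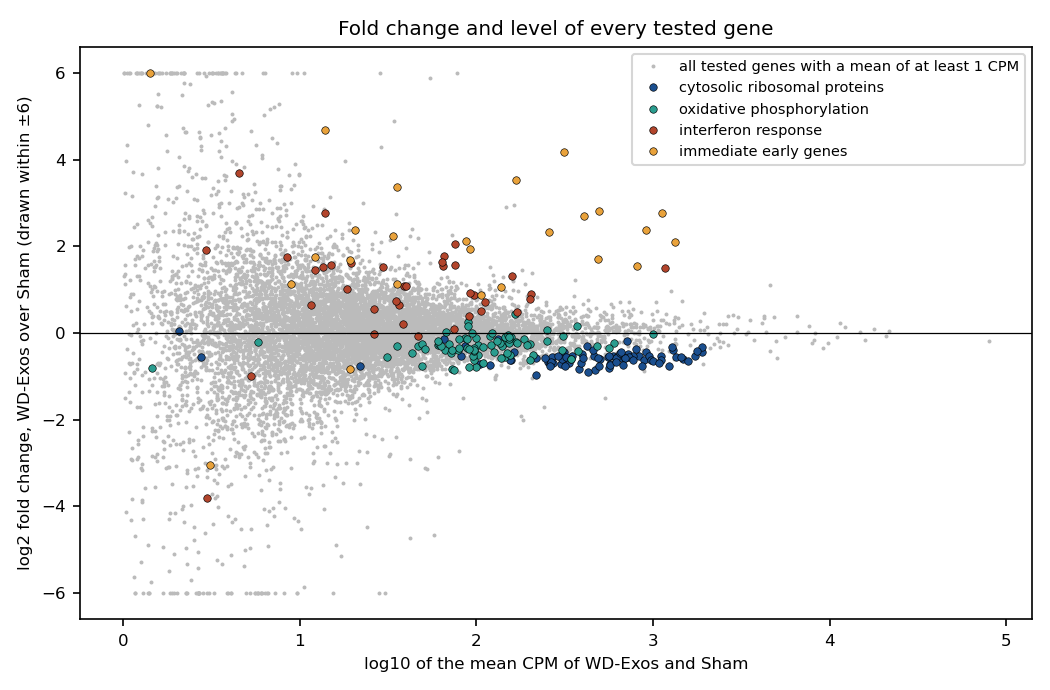
Log2 fold change of WD-Exos over Sham (vertical axis, drawn within ±6) against the log10 of the mean CPM of both groups (horizontal axis) for tested genes with a mean of at least 1 CPM, with 4 gene lists coloured. Ribosomal protein genes form a compact cloud below 0 with a median of -0.57, while immediate early and interferon response genes lie mostly above 0 with medians of 2.13 and 1.01.

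Transcripts of the cytosolic ribosome were lower in WD-Exos almost throughout, and they made up 74 of the 158 abundant genes that were lower at an unadjusted p under 0.05 and 40 of the 47 without overlap. Ribosomal proteins are the protein part of the particle that makes every cellular protein, and their transcripts are short, abundant and usually made in step. Of 86 tested genes of this list, 85 were lower in WD-Exos and 77 of these had an unadjusted p under 0.05, against 2.9% of all tested genes that were lower at this level. For 43 of the 86 every WD-Exos library was below every Sham library. The median log2 fold change was -0.57, against 0.006 over all tested genes and -0.032 over abundant genes. Of the 30 genes with the smallest p of all, 23 belonged to this list.

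Rps28, a small-subunit protein, stood at 218 CPM in the lowest, 282 at the median and 433 in the highest WD-Exos library, against 459.9, 569 and 652 CPM in Sham libraries (log2 fold change -0.90, SE 0.17, adjusted p = 0.0624). Rplp1, an acidic protein of the stalk that recruits elongation factors, stood at 635, 903 and 1167 CPM in WD-Exos and at 1314, 1569 and 1697 CPM in Sham (-0.76, SE 0.15, adjusted p = 0.0624). Rps3, which sits where messenger RNA enters the small subunit, stood at 850.2, 1113 and 1283 CPM in WD-Exos and at 1439, 1557 and 1851 CPM in Sham (-0.55, SE 0.11, adjusted p = 0.0624). In none of these 3 genes did the groups overlap. The same was true of the small-subunit gene Rps27 (log2 fold change -0.62) and of the large-subunit genes Rpl27a (-0.81) and Rpl26 (-0.85). Their adjusted p-values lay at 0.0624 or 0.0639.

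Summed over the list, ribosomal protein genes took 3.3 to 5.19% of all counts in WD-Exos libraries, with a median of 4.16%, and 5.68 to 7.02% in Sham libraries, with a median of 6.08%. The highest WD-Exos library, replicate 1, was thus still below the lowest Sham library, replicate 2. Without WD-Exos replicate 1, edgeR called 14 genes past the adjusted threshold, 13 of them lower, and 12 of the 14 were ribosomal protein genes. Of the 63 genes that voom called, 39 were ribosomal protein genes. Both other operated groups also stood below Sham, with median log2 fold changes of -0.47 for BCAS and -0.57 for ND-Exos over the list. All of these comparisons share the Sham libraries. Set directly against the other operated groups, WD-Exos differed by a list median of -0.10 from BCAS and -0.02 from ND-Exos. By edgeR 0 of the 86 genes passed in either comparison. Of all tested genes 0% passed against BCAS and 0.0196% against ND-Exos.

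**Figure D2:**
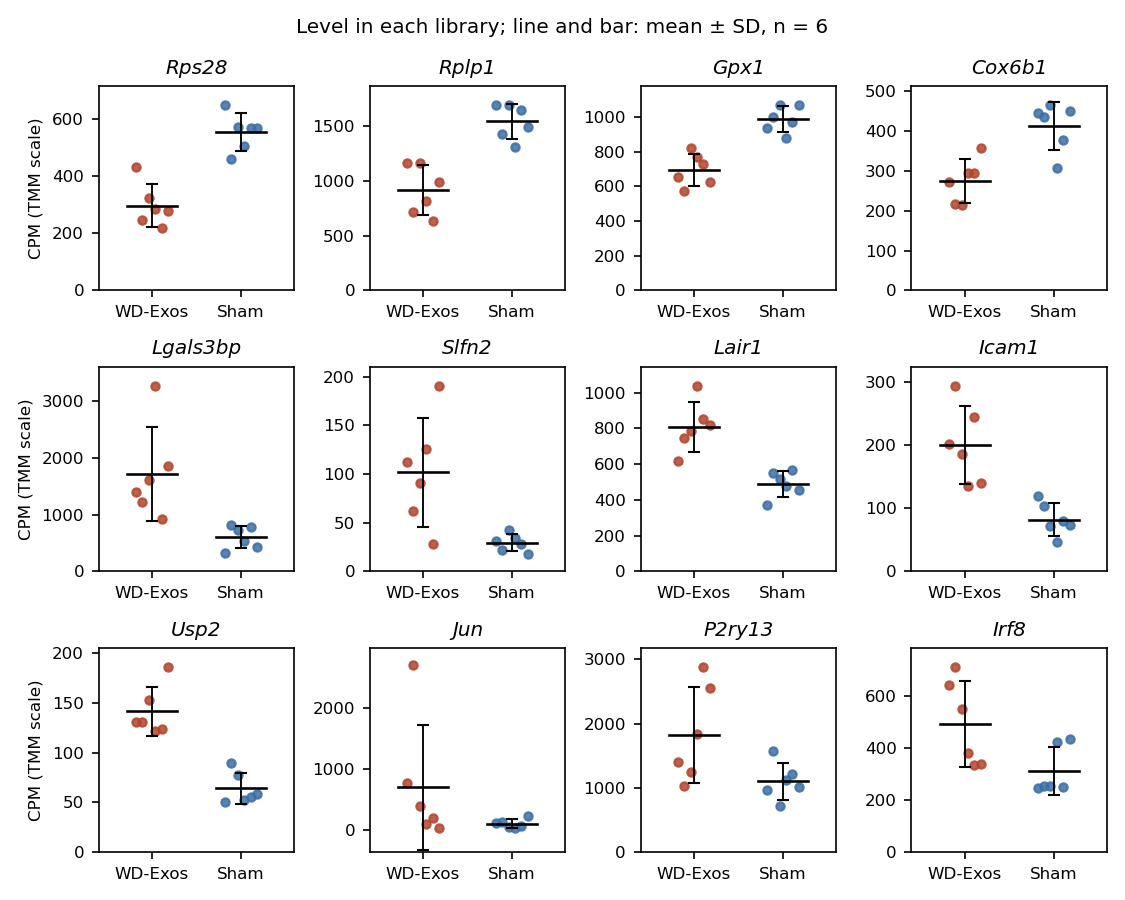
CPM on the TMM scale (vertical axis of each panel) of 12 genes in the 6 WD-Exos and 6 Sham libraries; points are libraries, the line is the mean and the bar the SD. The points of Rps28, Rplp1 and Gpx1 lie wholly lower and those of Lgals3bp, Lair1 and Icam1 wholly higher in WD-Exos, whereas for Jun the highest WD-Exos library, at 2699 CPM, carries the mean.

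Ribosomal protein transcripts are short, and transcript length moved with the fold change among other genes at high levels as well. Length was compared over genes with a mean above 100 CPM across all 24 libraries. Outside the list, those with transcripts of up to 600 bases had a median log2 fold change of -0.23 (n = 68). Between 600 and 1000 bases it was -0.12 (n = 288), and between 1500 and 2500 bases 0.09 (n = 356). Ribosomal protein genes stood lower than other genes in every length class in which they had members. In transcripts of 1000 to 1500 bases, for instance, their median was -0.52 (n = 12) and that of other genes -0.02 (n = 255). Among WD-Exos libraries, replicate 2 had the lowest levels of short transcripts outside the list, with a median log2 deviation of -0.365 from the mean of all libraries, and replicate 6 the highest, at 0.121. In Sham libraries the same measure ran between -0.00129 and 0.155. The part of transcript length in the lower levels of single short genes was not tested.

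**Figure D3:**
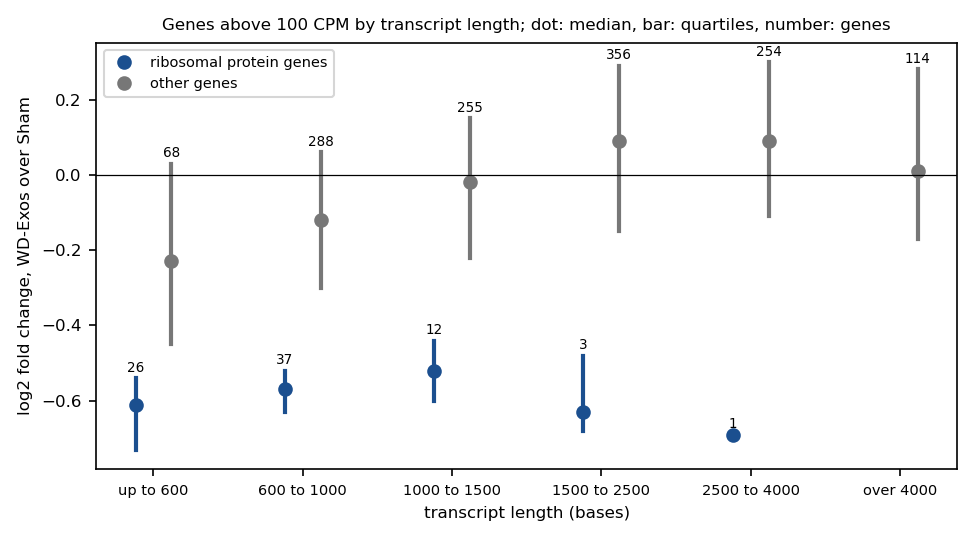
Log2 fold change of WD-Exos over Sham (vertical axis) by transcript length in bases (horizontal axis) for genes with a mean above 100 CPM across all 24 libraries. Dots are medians, bars the quartiles and numbers the genes in each class. Ribosomal protein genes keep a median between -0.69 and -0.52 in all 5 classes that hold them, while other genes run between -0.23 in the shortest class and 0.09 in the classes between 1500 and 4000 bases.

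Nuclear genes of oxidative phosphorylation, the respiratory chain and ATP synthase of mitochondria, were the next large group on the low side. Of 79 tested genes 72 were lower in WD-Exos, 20 of them at an unadjusted p under 0.05, and 0 were higher at that level. Of all tested genes 2.9% were lower at that level, and of abundant genes 12.4%. Their median log2 fold change was -0.29. Genes outside the ribosomal list in the length classes above had medians of -0.23 up to 600 bases and -0.12 between 600 and 1000 bases. Respiratory genes above 100 CPM were not taken out of these classes, so the medians are not independent of this list. The part of transcript length in the respiratory list was not tested. Cox6b1, which belongs to cytochrome c oxidase, stood at 214, 283 and 358 CPM in the lowest, median and highest WD-Exos library and at 308, 441 and 467 CPM in Sham (-0.59, SE 0.14, adjusted p = 0.114). For Cox6b1, 5 of 6 WD-Exos libraries were below every Sham library. Ndufb3, an accessory subunit of complex I, stood at 33.9, 55.6 and 66.4 CPM in WD-Exos and at 74.3, 95.0 and 124 CPM in Sham, with no overlap (-0.85, SE 0.23, adjusted p = 0.204). Together these genes took 0.939 to 1.24% of counts in WD-Exos libraries and 1.2 to 1.39% in Sham libraries. The count of lower members was 63 of 79 without WD-Exos replicates 1 and 2 and 67 of 79 without Sham replicates 1 and 3. The list medians against Sham were -0.17 in BCAS and -0.10 in ND-Exos libraries. Compared directly, WD-Exos stood at -0.14 against BCAS and -0.25 against ND-Exos. By edgeR 0 of the 79 genes passed in either comparison.

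Other lists for making, folding and degrading proteins also had more genes lower than higher. Of 78 mitochondrial ribosomal protein genes 58 were lower, with a median of -0.28, and 2 of them were lower at an unadjusted p under 0.05, which is near the 2.9% of all tested genes. Mrpl52, of the large mitochondrial subunit, stood at 40.2, 51.2 and 63.1 CPM in WD-Exos and at 71.3, 98.1 and 113 CPM in Sham, without overlap (-0.86, SE 0.25, adjusted p = 0.265). Of 53 translation factors 37 were lower, with a median of -0.15. Elongation factor Eef1a1, which carries aminoacyl-tRNA to the ribosome, averaged 8009 ± 1082 CPM in WD-Exos and 10219 ± 984 CPM in Sham (-0.35, SE 0.10, adjusted p = 0.222). Its exchange factor Eef1b2 averaged 281 ± 80.2 CPM in WD-Exos and 419.6 ± 65.2 CPM in Sham (-0.58, SE 0.19, adjusted p = 0.40). Proteasome subunits, which degrade tagged proteins, were lower in 28 of 38 cases with a median of -0.12, and 1 had an unadjusted p under 0.05, again near 2.9%. Without WD-Exos replicates 1 and 2 the proteasome list had 19 of 38 genes lower and a median of -0.01, and the mitochondrial ribosomal list had 48 of 78 lower.

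Chaperones, which fold proteins and protect them under stress, were lower in 15 of 22 cases, with a median of -0.33. Of these, 4 had an unadjusted p under 0.05, against 2.9% of all tested genes and 12.4% of abundant genes that were lower at this level. Dnaja1, a co-chaperone of Hsp70, stood at 75, 137 and 180 CPM in WD-Exos and at 188, 252 and 475 CPM in Sham (-1.03, SE 0.26, adjusted p = 0.144). Hsp90ab1, the constitutive cytosolic Hsp90, stood at 833, 1043 and 1284 CPM in WD-Exos and at 1262, 1560 and 1969 CPM in Sham (-0.61, SE 0.15, adjusted p = 0.137). Dnaja1 did not overlap between the groups, and for Hsp90ab1 the highest WD-Exos library reached into the Sham range. BCAS libraries averaged 233 ± 76.9 CPM and ND-Exos libraries 218 ± 61.9 CPM of Dnaja1, and the WD-Exos mean was 136 ± 40.7 CPM. The direct differences of WD-Exos by edgeR were -0.78 from BCAS (adjusted p = 0.816) and -0.68 from ND-Exos (adjusted p = 0.637). Hsp90ab1 averaged 1210 ± 264 CPM in BCAS and 1079 ± 169.7 CPM in ND-Exos, beside 1043 ± 173 CPM in WD-Exos. The list medians against Sham were -0.20 in BCAS and -0.28 in ND-Exos libraries.

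Enzymes that clear peroxide and superoxide, by-products of respiration and of the phagocyte oxidase, were lower in 13 of 16 cases with a median of -0.26. Gpx1, the cytosolic selenoenzyme that reduces hydrogen peroxide with glutathione, stood at 575, 689.9 and 824 CPM in WD-Exos and at 881, 986 and 1072 CPM in Sham (-0.51, SE 0.12, adjusted p = 0.0971). All 6 WD-Exos libraries were below every Sham library for Gpx1, and leaving out any 1 library kept its log2 fold change between -0.55 and -0.46. In the other operated groups Gpx1 averaged 862 ± 93.3 CPM with BCAS and 954 ± 143 CPM with ND-Exos, and the WD-Exos mean was 696 ± 93.7 CPM. The differences of WD-Exos from these groups were -0.31 against BCAS (adjusted p = 0.864) and -0.46 against ND-Exos (adjusted p = 0.299). Prdx2, a peroxiredoxin, averaged 109 ± 16.2 CPM in WD-Exos and 169 ± 52.5 CPM in Sham (-0.64, SE 0.20, adjusted p = 0.345), with 177 ± 35.3 CPM in BCAS and 175 ± 37.9 CPM in ND-Exos. Nfe2l2, the factor that turns on antioxidant enzymes, and its targets were lower in 13 of 21 cases, and in 10 of 21 without Sham replicates 1 and 3. Nfe2l2 itself averaged 265 ± 47.1 CPM in WD-Exos and 218 ± 41.9 CPM in Sham (0.28, SE 0.19, adjusted p = 1). The NADPH oxidase list, the source of superoxide in phagocytes, had 4 of 8 genes higher. Its small GTPase Rac1 averaged 343 ± 197 CPM in WD-Exos and 591 ± 93.8 CPM in Sham (-0.79, adjusted p = 0.591). The proton channel Hvcn1, which balances the charge the oxidase moves, averaged 355 ± 56.6 CPM in WD-Exos and 236 ± 59.3 CPM in Sham (0.59, adjusted p = 0.745).

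Genes of the interferon response, induced through a complex that holds Stat2 and Irf9 after type I interferon binds its receptor, stood on the high side. Of 37 tested genes 33 were higher in WD-Exos, 9 of them at an unadjusted p under 0.05, against 2.5% of all tested genes, and the median log2 fold change was 1.01. Lgals3bp, a secreted glycoprotein that interferon induces, stood at 923, 1509 and 3281 CPM in the lowest, median and highest WD-Exos library and at 332, 635 and 814 CPM in Sham (1.51, SE 0.29, adjusted p = 0.0624). Every WD-Exos library was above every Sham library for Lgals3bp, and it passed the edgeR test when WD-Exos replicate 1 was left out. Slfn2, a schlafen protein, stood at 27.9, 102 and 191 CPM in WD-Exos and at 18.2, 30 and 42.6 CPM in Sham (1.78, SE 0.46, adjusted p = 0.144), with 5 of 6 WD-Exos libraries above every Sham library. The antiviral gene Ifit3, chosen after its values were seen, stood at 19.2, 77.2 and 357 CPM in WD-Exos and at 4.74, 31.4 and 45.2 CPM in Sham (2.05, SE 0.63, adjusted p = 0.322). Irf9, chosen in the same way, is the DNA-binding part of the complex that drives these genes. It stood at 101, 116 and 177 CPM in WD-Exos and at 21.7, 79.7 and 89.4 CPM in Sham, without overlap (0.88, SE 0.27, adjusted p = 0.343).

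The height of the interferon response differed among the WD-Exos libraries. The mean log2(CPM + 1) of the list was 6.6 in replicate 6, 5.9 in replicate 4 and 5.28 in replicate 3, above every Sham library, and 4.17 to 4.64 in the other 3. Sham libraries ran between 3.51 and 5.16, and their replicates 2 and 3 were the highest of that group. Replicate 6 of WD-Exos also had the most oligodendrocyte marker RNA of its group, 11245 CPM against at most 5255 CPM in the others, and the part of this in its interferon values was not tested. Across every alternative tried, the list median stayed between 0.70 and 1.29. BCAS libraries had a list median of 0.83 and ND-Exos libraries one of -0.29 against the same Sham libraries. Set directly against each other, WD-Exos stood at a list median of 0.27 over BCAS and 1.26 over ND-Exos. Lgals3bp alone of the list passed against ND-Exos (2.18, SE 0.30, adjusted p = 0.000522 by edgeR), where 0.0196% of all tested genes passed. Against BCAS, where 0% of all tested genes passed, 0 of the 37 did, and Lgals3bp differed by 0.40 (SE 0.29, adjusted p = 1).

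The promoters of interferon genes are shown because the complex that holds Stat2 and Irf9 recognises a known DNA element, the interferon-stimulated response element, whose core is a pair of GAAA runs with 2 bases between them. The motif GAAANNGAAA was searched on both strands in the window of 250 bases before to 50 bases after each start in the RefSeq promoter table, build GRCm38.p6. Of the 37 genes, 29 matched an entry. The motif lay in 18 of their 36 promoters (50%), against 3.44% of all 32851 promoters in the table. Genes with the motif had a median log2 fold change of 0.92 (n = 17) and genes without it 1.30 (n = 12). The stretches that follow, 5′ to 3′ on the strand of the gene, carry the motif in capitals in either orientation, and those of Bst2, Trim30a and Stat2 were chosen as examples with the values known. In Lgals3bp the capitals mark a pair of GAAA runs with 3 bases between them, a spacing looked for after its sequence was seen. That spacing occurs in 2.75% of all promoters and in 9 of the 36.
Ifit3, chr19:34583343-34583446, plus strand: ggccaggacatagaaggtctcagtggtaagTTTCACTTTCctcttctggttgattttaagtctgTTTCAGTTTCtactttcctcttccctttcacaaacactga
Bst2, chr8:71537557-71537632, minus strand: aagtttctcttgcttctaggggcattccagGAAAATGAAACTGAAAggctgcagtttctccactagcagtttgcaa
Trim30a, chr7:104465194-104465259, minus strand: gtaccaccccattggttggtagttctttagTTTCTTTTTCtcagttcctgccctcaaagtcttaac
Stat2, chr10:128270248-128270315, plus strand: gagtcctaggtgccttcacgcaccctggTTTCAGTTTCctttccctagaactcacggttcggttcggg
Lgals3bp, chr11:118401960-118401989, minus strand: tcatgtgttttctGAAAATCGAAActaggt

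Ifit3 holds the motif more than once in this window, and in Bst2, a membrane protein that tethers budding viruses, overlapping copies share a run. Bst2 averaged 253 ± 129 CPM in WD-Exos and 147 ± 48.9 CPM in Sham (0.78, SE 0.36, adjusted p = 0.835). Trim30a, a ubiquitin ligase of the tripartite motif family, averaged 139 ± 66.7 CPM in WD-Exos and 84.8 ± 20.2 CPM in Sham (0.72, SE 0.34, adjusted p = 0.881). Stat2, the signal transducer that partners Irf9, was found in 5 of 6 WD-Exos libraries and 3 of 6 Sham libraries, at a median of 23.1 CPM in WD-Exos and 0.41 CPM in Sham (adjusted p = 1). The groups overlapped for all 3 genes.

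Genes of antigen presentation on MHC class I, which interferon also raises, were higher in 17 of 22 cases with a median of 0.24. Of these, 3 had an unadjusted p under 0.05, against 2.5% of all tested genes that were higher at this level. The list medians against Sham were 0.27 in BCAS and -0.07 in ND-Exos libraries. H2-M3, a class I molecule that presents formylated peptides, averaged 113 ± 35.5 CPM in WD-Exos and 50.4 ± 27.9 CPM in Sham (1.16, SE 0.42, adjusted p = 0.454). Tapbp, which bridges class I molecules to the peptide transporter, averaged 612 ± 112 CPM in WD-Exos and 439 ± 104 CPM in Sham (0.48, SE 0.21, adjusted p = 0.799). Class II genes showed no such lean, with 5 of 11 higher and a median of -0.27. Across every alternative tried, that median stayed between -0.39 and -0.1.

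The abundant genes with the smallest p on the high side included receptors of myeloid cells. Lair1, an inhibitory receptor for collagen, stood at 616, 799 and 1039 CPM in WD-Exos and at 372, 495 and 569 CPM in Sham, without overlap (0.72, SE 0.18, adjusted p = 0.118). Csf3r, the receptor for granulocyte colony-stimulating factor, averaged 457 ± 165 CPM in WD-Exos and 253 ± 51.2 CPM in Sham (0.86, SE 0.26, adjusted p = 0.331). Csf3r also stands on the neutrophil marker list, which summed to between 271 and 676 CPM in WD-Exos and between 179 and 328 CPM in Sham, with 4 of the 6 WD-Exos libraries above every Sham library. Csf3r itself made up nearly all of that sum. Of the 14 markers on the list 6 had values and 2 were tested, and the other of these, Cxcr2, averaged 0.343 CPM in WD-Exos and 0.251 CPM in Sham (0.44, SE 1.13, adjusted p = 1). S100a9, Ltf and Camp had no count in these 12 libraries, and the part of neutrophils in the value of Csf3r was not tested. The galectin gene Lgals9 averaged 907 ± 284 CPM in WD-Exos and 550.4 ± 136 CPM in Sham (0.72, adjusted p = 0.216). Shisa5, a membrane protein of the endoplasmic reticulum linked to cell death, averaged 538 ± 131 CPM in WD-Exos and 317 ± 87.2 CPM in Sham (0.77, adjusted p = 0.259). The high-affinity IgG receptor Fcgr1 averaged 387 ± 145 CPM in WD-Exos and 257 ± 85.4 CPM in Sham (0.59, adjusted p = 0.509), with replicate 6 of WD-Exos highest at 669.7 CPM. Over these 5 genes the log2 difference of WD-Exos from BCAS ran between -0.18 for Lair1 and 0.26 for Shisa5, each with an adjusted p of 1.

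**Figure D4:**
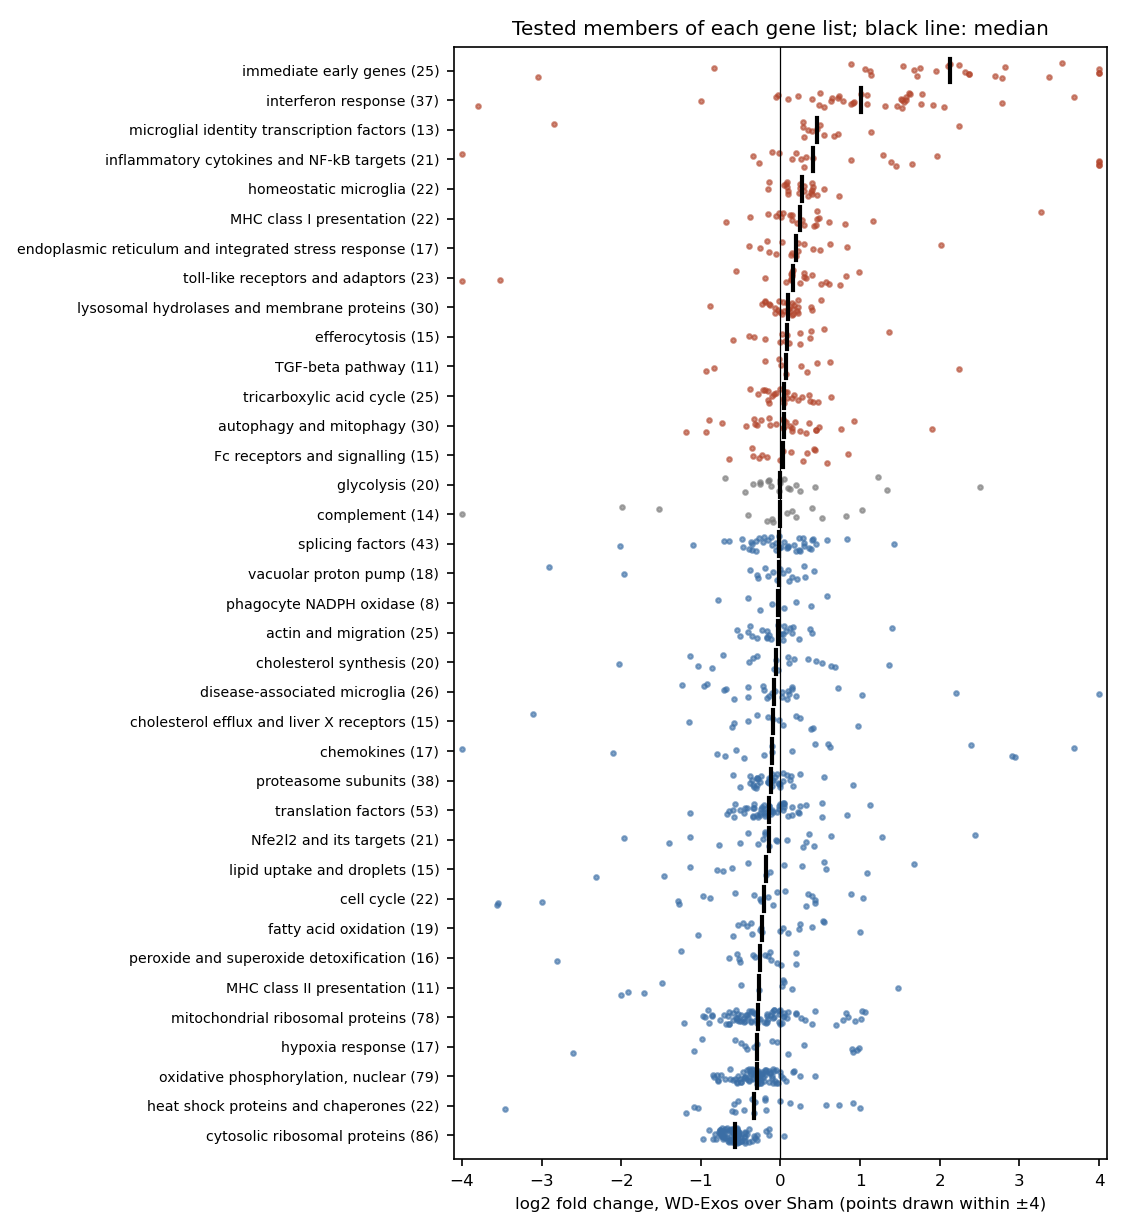
Log2 fold change of WD-Exos over Sham (horizontal axis, points drawn within ±4) for the tested members of 37 gene lists, ordered by their median, which is the black line; the number of tested members stands beside each name. Ribosomal protein genes sit lowest with a median of -0.57 and immediate early genes highest with 2.13, while glycolysis and the tricarboxylic acid cycle lie at 0.00 and 0.05.

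Immediate early genes had the highest median of the 37 lists, 2.13. They encode transcription factors and regulators that cells switch on rapidly, without new protein synthesis, after many kinds of stimulus. Of 25 tested genes 23 were higher in WD-Exos. An unadjusted p under 0.05 was found for 12 of these, against 2.5% of all tested genes that were higher at this level. Jun, a subunit of the transcription factor AP-1, stood at 45.1, 295 and 2699 CPM in the lowest, median and highest WD-Exos library and at 44.5, 98.8 and 229 CPM in Sham (2.69, SE 0.74, adjusted p = 0.222). Its partner Fos, chosen after its values were seen, stood at 199.7, 1965 and 4884 CPM in WD-Exos and at 49.6, 306 and 617 CPM in Sham (2.78, SE 0.89, adjusted p = 0.396). The stress-induced factor Atf3 stood at 15.3, 468 and 1649 CPM in WD-Exos and at 0.163, 25.4 and 90.0 CPM in Sham (4.18, SE 1.32, adjusted p = 0.38). The lowest WD-Exos libraries thus reached into the Sham range for Jun, Fos and Atf3.

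The spread between WD-Exos libraries was wide here. The mean log2(CPM + 1) of the list was 8.19 in replicate 2, 7.19 in replicate 3, 6.82 in replicate 1 and 5.66 in replicate 5, each above every Sham library. It was 4.02 in replicate 4 and 4.21 in replicate 6, inside the Sham range of 3.71 to 5.04. Replicates 4 and 6 were at the same time the highest of the group in the interferon list. Replicate 2, with the most immediate early RNA, also had the most genes with a count of the 12 libraries, 10794, and the part of this in its values was not tested. Leaving out 1 library moved the log2 fold change of Jun between 1.47 and 3.07. Without WD-Exos replicates 1 and 2, 23 of 25 genes were still higher. In BCAS and ND-Exos libraries the list medians against the same Sham libraries were 1.29 and 0.88.

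**Figure D5:**
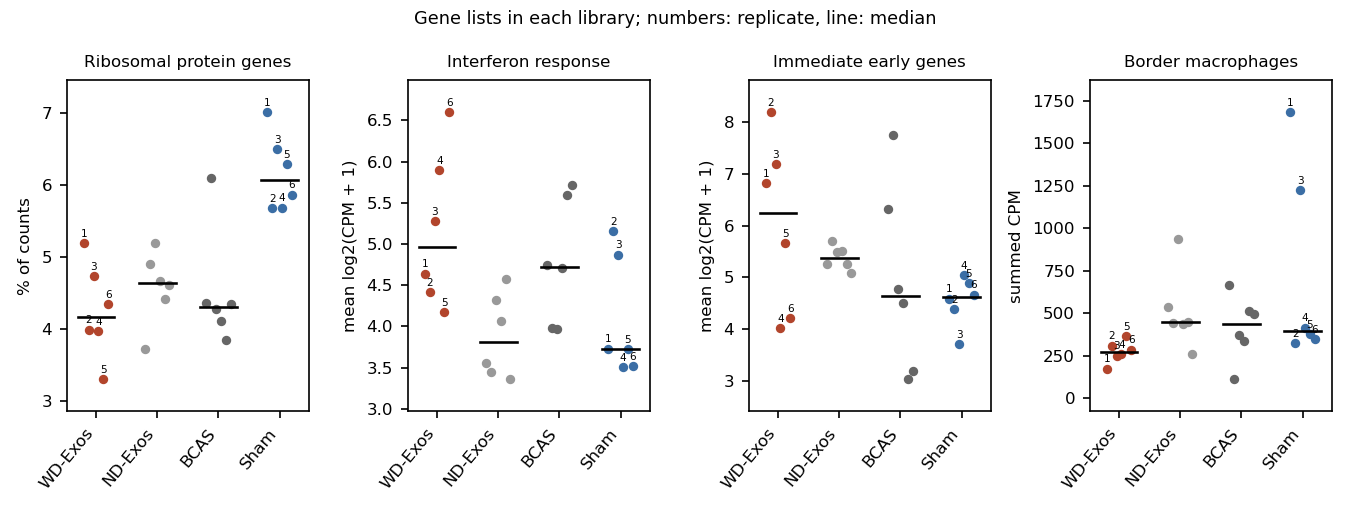
Share of counts of ribosomal protein genes (%), mean log2(CPM + 1) of interferon response and of immediate early genes, and summed CPM of border macrophage markers (vertical axes) in each library of WD-Exos, ND-Exos, BCAS and Sham; small numbers are replicates and lines medians. The ribosomal shares of WD-Exos, 3.3 to 5.19%, do not meet those of Sham, 5.68 to 7.02%, whereas WD-Exos replicates 4 and 6 are low in immediate early genes and high in interferon genes.

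Other genes on the high side encode a protease, a histone and a transcription factor. Usp2, a deubiquitinating enzyme, stood at 122, 131 and 186 CPM in WD-Exos and at 50.8, 57.2 and 89.4 CPM in Sham (1.14, SE 0.29, adjusted p = 0.145). H3f3b, which encodes a histone H3 variant used outside replication and was picked with its values known, averaged 1685 ± 715 CPM in WD-Exos and 854 ± 99.1 CPM in Sham (0.98, SE 0.32, adjusted p = 0.396). Neither Usp2 nor H3f3b overlapped between the groups. The forkhead factor Foxn3 stood at 112, 164 and 234 CPM in WD-Exos and at 29.1, 71.7 and 123 CPM in Sham (1.20, SE 0.25, adjusted p = 0.0639). Foxn3 averaged 171 ± 30.7 CPM in BCAS and 195 ± 30.7 CPM in ND-Exos, beside 176 ± 47.9 CPM in WD-Exos.

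Inflammatory cytokines and targets of NF-kB, the factor that innate immune receptors activate, were higher in 16 of 21 cases. Of these, 7 had an unadjusted p under 0.05, against 2.5% of all tested genes that were higher at this level. The list median was 0.41, and it was 1.32 over members with a mean above 20 CPM and 1.37 by voom. In BCAS and ND-Exos libraries the list medians against Sham were 0.43 and 0.35. Icam1, an adhesion molecule for integrins, stood at 135, 193 and 294 CPM in WD-Exos and at 46.1, 76.2 and 119 CPM in Sham, without overlap (1.29, SE 0.37, adjusted p = 0.224). The cytokine Il6 was found in all 6 WD-Exos libraries, at 2.77 to 9.04 CPM, and had no count in any Sham library (adjusted p = 0.267). It averaged 3.10 ± 3.57 CPM in BCAS and 0.878 ± 2.15 CPM in ND-Exos. Chemokines and their receptors leaned neither way, with 8 of 17 genes higher.

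Homeostatic microglial genes were higher by small amounts. Of 22 genes 20 were higher in WD-Exos, and the median of the log2 fold changes was 0.27. At an unadjusted p under 0.05, 4 were higher, against 2.5% of all tested genes and 4.78% of abundant genes. P2ry13, a receptor for ADP, stood at 1028, 1625 and 2886 CPM in WD-Exos and at 727, 1072 and 1578 CPM in Sham (0.73, SE 0.24, adjusted p = 0.40). Cx3cr1, the fractalkine receptor, stood at 3794, 4712 and 6048 CPM in WD-Exos and at 3154, 3745 and 3978 CPM in Sham (0.39, SE 0.15, adjusted p = 0.504). The groups overlapped for both genes, by 3 and 1 of the 6 WD-Exos libraries. P2ry12, which guides microglial processes to sites of injury, had a log2 fold change of 0.34 (SE 0.19) and Tmem119, a microglial surface marker, one of 0.46 (SE 0.24), with adjusted p-values of 1 and 0.996. In BCAS and ND-Exos libraries the log2 fold changes over Sham were 0.51 and 0.68 for P2ry12 and 0.18 and -0.16 for Tmem119.

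Transcription factors that set microglial identity were higher in 12 of 13 cases, with a median of 0.46. Of these, 5 had an unadjusted p under 0.05, against 2.5% of all tested genes that were higher at this level. The list medians against Sham were 0.37 in BCAS and 0.58 in ND-Exos libraries. Irf8, needed for the microglial lineage, stood at 336, 465 and 713 CPM in WD-Exos and at 246, 254 and 434 CPM in Sham (0.67, SE 0.21, adjusted p = 0.362). Mef2c, which restrains the inflammatory response of microglia, averaged 366 ± 85.6 CPM in WD-Exos and 266 ± 88.0 CPM in Sham (0.46, SE 0.19, adjusted p = 0.626). Smad3, which carries the TGF-beta signal that keeps microglia homeostatic, stood at 46.7, 62.8 and 98.0 CPM in WD-Exos and at 3.66, 11.3 and 43.0 CPM in Sham (2.24, SE 0.95, adjusted p = 0.685). The groups did not overlap for Smad3, and the Sham libraries were low and uneven.

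Genes of the disease-associated state, which microglia take on around plaques and damaged myelin, were split, with 12 of 26 higher and 14 lower and a median of -0.08. The 3 with an unadjusted p under 0.05 were all lower. Of all tested genes 2.9% were lower at this level, and of abundant genes 12.4%. Fth1, the heavy chain of the iron store ferritin, averaged 3932 ± 624 CPM in WD-Exos and 5215 ± 703 CPM in Sham (-0.41, SE 0.13, adjusted p = 0.396). Lyz2, the lysozyme of myeloid cells, averaged 1464 ± 289.8 CPM in WD-Exos and 2394 ± 1022 CPM in Sham (-0.71, SE 0.24, adjusted p = 0.406).

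Border macrophages live along the vessels and meninges, and their markers were lower in WD-Exos. All 11 had a lower mean, and the 9 tested had a median log2 fold change of -2.45. Of these, 2 had an unadjusted p under 0.05, against 2.9% of all tested genes that were lower at this level. The list medians against Sham were -1.19 in BCAS and -0.80 in ND-Exos libraries. Markers of mural cells (9 with a lower mean, 0 higher) and of oligodendrocyte precursors (7 lower, 0 higher) leaned the same way in WD-Exos. The summed level of border macrophage markers was 175 to 364 CPM in WD-Exos libraries and 324 to 1684 CPM in Sham libraries. The median was 274 CPM in WD-Exos and 396 CPM in Sham, and Sham replicates 1, at 1684 CPM, and 3, at 1226 CPM, stood far above the other 4. Pf4, a chemokine that these macrophages make, was picked with its values known and stood at 0.0365, 10.5 and 22.2 CPM in WD-Exos and at 3.7, 63.5 and 251 CPM in Sham (-3.13, SE 1.04, adjusted p = 0.396). Without Sham replicates 1 and 3, 7 of the 9 tested markers were lower. Fewer cells of a type and less RNA per cell cannot be told apart in such libraries. Lyz2 and Apoe are also made by border macrophages, and the part of these cells in their values was not tested. Without Sham replicates 1 and 3, 86 of 86 ribosomal protein genes were lower and 33 of 37 interferon genes higher.

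Metabolic lists other than respiration had medians between -0.23 and 0.05. Glycolysis had 11 of 20 genes higher with a median of 0.00, and the tricarboxylic acid cycle 14 of 25 with a median of 0.05. Hk3, a hexokinase of myeloid cells, stood out of the glycolytic list at 95.1, 173 and 292 CPM in WD-Exos and at 24.3, 78.9 and 92.9 CPM in Sham, without overlap (1.34, SE 0.38, adjusted p = 0.224). Idh2, the mitochondrial isocitrate dehydrogenase that makes NADPH, averaged 249.8 ± 62.3 CPM in WD-Exos and 193 ± 33.0 CPM in Sham (0.37, SE 0.22, adjusted p = 1). Fatty acid oxidation had 8 of 19 genes higher with a median of -0.23, cholesterol synthesis 9 of 20 with a median of -0.05, and lipid uptake and droplets 6 of 15 with a median of -0.18.

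Cholesterol efflux and liver X receptor genes, which unload lipid from macrophages, had 6 of 15 higher and a median of -0.09. Apoe, the lipid carrier of brain, averaged 4026 ± 649.5 CPM in WD-Exos and 6006 ± 2408 CPM in Sham (-0.58, SE 0.30, adjusted p = 1). Abcg1, a cholesterol exporter, ran between 242 and 760.3 CPM in WD-Exos and between 335 and 387 CPM in Sham (0.41, SE 0.21, adjusted p = 1). Its WD-Exos libraries thus lay on both sides of the narrow Sham range, 3 above it and 2 below.

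Lysosomal and autophagy genes were likewise divided. Of 30 lysosomal hydrolases and membrane proteins 19 were higher, with a median of 0.09. Lgmn, an asparaginyl protease, averaged 7386 ± 655 CPM in WD-Exos and 5603 ± 513 CPM in Sham (0.40, SE 0.14, adjusted p = 0.423). Lamp1, the main glycoprotein of the lysosomal membrane, ran between 156 and 1308 CPM in WD-Exos and between 864 and 1569 CPM in Sham (-0.88, SE 0.36, adjusted p = 0.61). Autophagy and mitophagy genes were higher in 18 of 30 cases. Ulk2, a kinase that starts autophagy, stood at 15.7, 47.2 and 59.9 CPM in WD-Exos and at 77.8, 87.7 and 133 CPM in Sham, without overlap (-1.18, SE 0.40, adjusted p = 0.413). Its means in the other operated groups were 95.1 ± 75.3 CPM with BCAS and 95.8 ± 43.8 CPM with ND-Exos, and the WD-Exos mean was 43.2 ± 17.1 CPM. The log2 difference of WD-Exos was -1.14 from BCAS (adjusted p = 0.816) and -1.15 from ND-Exos (adjusted p = 0.548).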

How the data were processed

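RNA of sorted microglia was amplified by Smart-seq2, per the labels' protocols. The authors deposited 1 table of estimated counts for 22064 Entrez genes, unscaled; 6186 genes were blank in every library, and 76.8% of the others held whole numbers throughout. Aligner, genome build and annotation: not given in the sources used here. Counts were rounded and analysed by edgeR 4.0.16 under R 4.3.3 (filterByExpr with a minimum of 10 counts, TMM factors of 0.936 to 1.17, 1 robust quasi-likelihood fit of 24 libraries in 4 groups, Benjamini-Hochberg adjustment over 10219 genes, threshold 0.05). CPM are on the TMM scale. Totals of 25123405 to 28601008 counts limit precision less than the spread between libraries (common biological coefficient of variation 1.45), and amplified reads are not independent molecules. Symbols came from the RefSeq table of GRCm38.p6 (15828 of 15878 genes). Transcript lengths came from GENCODE for 99.4% of genes with a mean above 100 CPM across the 24 libraries.

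Named genes were, as no gene passed, the 6 higher and 6 lower with the smallest p, the 8 each way above 100 CPM, the 2 with the smallest p in each of 37 gene lists, and P2ry12, Tmem119, Cx3cr1 and Lgals3bp. The text leaves some out, and some genes that the rule picked are not reported here. Ifit3, Irf9, Fos, H3f3b, Pf4, Bst2, Trim30a and Stat2 fall outside this rule. The comparison, lists and rule were chosen with earlier results of these data known. Alternatives were other scaling, other filters, the 12 libraries alone, the replicate number as a block, a covariate for detected genes, voom (limma 3.58.1), DESeq2 1.42.0 and leaving out each library. The procedure was tested on simulated data.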

Additional observations from a re-analysis of the deposited data

Results flagged for a closer look

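Some single libraries stood far from the other 5 of their group, by Dixon's criterion for 6 values (a gap to the nearest library of over 0.625 of the group's range). Of 150 checks on named genes and marker sums 16 met it, where chance gives about 1 in 20. Among genes, Jun stood at 2699 CPM in WD-Exos replicate 2, next to 765 CPM in the nearest library. Fcgr1 stood at 669.7 CPM in WD-Exos replicate 6 (nearest 378 CPM). Mef2c stood at 529 CPM in WD-Exos replicate 5 (nearest 368 CPM) and at 433 CPM in Sham replicate 3 (nearest 268 CPM). Smad3 stood at 43.0 CPM in Sham replicate 1 (nearest 15.3 CPM), and Psma2, a proteasome subunit, at 161 CPM in the same library (nearest 197 CPM).

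Summed markers of other cell types set further libraries apart. Oligodendrocyte markers reached 11245 CPM in WD-Exos replicate 6 (nearest 5255 CPM) and 14617 CPM in Sham replicate 4 (nearest 5074 CPM). Astrocyte markers reached 1006 CPM in WD-Exos replicate 4 (nearest 658 CPM), neuronal markers 338 CPM in Sham replicate 1 (nearest 27.4 CPM) and mural cell markers 1027 CPM in Sham replicate 2 (nearest 203 CPM). WD-Exos replicate 2 was highest for markers of T and NK cells, at 1.88 CPM (nearest 0.443 CPM), of erythroid cells, at 12.1 CPM (nearest 1.84 CPM), and of ependymal cells, at 47.9 CPM (nearest 0.037 CPM). Erythroid markers stood at 2.05 CPM in Sham replicate 1 and at 0 in the other Sham libraries. Ependymal markers stood at 79.7 CPM in Sham replicate 3 (nearest 9.78 CPM).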

How the results depend on the processing

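The count of 0 genes past the threshold was also found with size factors of the DESeq2 type, without a filter, with only genes above 20 CPM, and in the 12 libraries alone. It became 19 (2 higher, 17 lower; 15 ribosomal protein genes) with a covariate for detected genes, 63 (14 higher, 49 lower) by voom, and 172 (78 higher, 94 lower) by DESeq2, which left 45 genes without an adjusted p. Leaving out each library gave 0 to 14 genes, 0 to 1 higher and 0 to 13 lower, and only leaving out WD-Exos replicate 1 gave any. Settings chosen after seeing the data, without Sham replicates 1 and 3 or without WD-Exos replicates 1 and 2, gave 0. The replicate block gave 0 genes, and 0 in the 12 libraries alone. Deviations of equally numbered libraries correlated between -0.24 and 0.05, and 0 of 12 libraries correlated best with their own number. None of the named genes' fold changes reversed under any alternative, and 58 of their values moved past the threshold while 1297 did not. The list medians moved by less than the spread between libraries in 842 cases and by more in 9, and the cause was not tested. That spread is wide, and medians near 0 often took the other sign. Of those beyond 0.05 in size, the other sign came up in 11 of 23 settings for chemokines (-0.21 to 0.45). It came up in 4 for the cell cycle (-0.48 to 0.42), 4 for the hypoxia response (-0.41 to 0.17) and 2 for cholesterol efflux (-0.18 to 0.11). It came up in 1 each for Nfe2l2 targets (-0.21 to 0.17), fatty acid oxidation (-0.24 to 0.02) and disease-associated genes (-0.15 to 0.0). The median of the inflammatory list ran between 0.35 and 1.37. Depth was even, and the spread between libraries limits genes below 100 CPM.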
